A study of Mus musculus with 33 samples.

Results

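Between IGKV1-99 and IGKV1-117 in the *Igk* light-chain locus lie 9 VK genes whose rearrangement was followed here in pro-B and pre-B cells: IGKV1-99, IGKV14-100, IGKV15-103, IGKV16-104, IGKV2-109, IGKV1-110, IGKV14-111, IGKV2-112 and IGKV1-117. They were taken by name, beside 154 other VK genes listed in each library, by a rule that uses no measured value, although the stretch was picked with earlier results of these data known. The plots write VK for IGKV in their names. The libraries were made by VDJ-seq, which captures joined VK-JK segments from genomic DNA with JK primers and records the VK gene in each joint. The cells were sorted ex vivo from the bone marrow of C57BL/6 mice aged 4 to 5 weeks, by surface markers that included B220+ IgM- IgD-, as pro-B cells (Kit+ CD25-) or pre-B cells (Kit- CD25+). Both cell types came from Wapl +/+ mice and from Wapl ∆P1,2/∆P1,2 mice of both sexes. The latter lack Pax5-binding sequences of the *Wapl* gene on both alleles, and Wapl, which releases cohesin from chromatin, is expressed at a higher level than in wild-type B cell progenitors. There were 6 pro-B libraries of each genotype and 4 pre-B libraries of each genotype, 20 in all. Libraries of genomic DNA hold no expression values, so the sorted cell types could not be checked against marker genes, and the labels do not tie a library to an animal, so that p-values measure the spread between libraries.

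Light-chain genes are assembled by the RAG recombinase, which cuts at recombination signal sequences (RSSs) beside a VK gene and a JK element and joins both. A VK RSS is a heptamer next to the coding end, a 12-base spacer and a nonamer. A VK gene in the orientation of the JK elements rearranges by deletion of the intervening DNA, whereas a gene in the opposite orientation rearranges by inversion. Most VK-JK joining takes place in pre-B cells, after a heavy chain has been made, and pro-B cells do it at a low level.

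The RSS is the DNA that makes these genes targets of RAG, and it is printed for all 9 genes so that genes with the same signal can be set beside their use. The sequences are those of chromosome 6 in the mm9 assembly (NCBIM37), forward strand, 5′ to 3′, in order from the JK side outward, with the heptamer and the nonamer in capitals and the spacer in lower case.
IGKV1-99: CACAGTGatgcaaaccctaACAAAAATG
IGKV14-100: CACAGTGattcaagtcataACATAAACC
IGKV15-103: CACAGTGatataagtcatgACACAAACC
IGKV16-104: CACAGTGatacaagtcataACAAAAACC
IGKV2-109: CACACTGatacagccctgaACAAAAACA
IGKV1-110: CACAGTGatacagaccctaACAAAAATA
IGKV14-111: CACAGTGagacaagtcataACATAAACC
IGKV2-112: CACAGTGatagagccctgaACAAAAACC
IGKV1-117: CACAGTGatacagaccctaACAAAAATA

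Each RSS was searched on the strand of the gene, from 3 bases before to 10 bases after the listed 3′ end, as the best match to the heptamer CACAGTG and the nonamer ACAAAAACC. The exact heptamer was found at 8 of the 9 genes and at 83 of the 92 VK genes classed as functional (90.2%). The exception was IGKV2-109, whose heptamer carried G5C, counted from 1 at the 5′ end of the heptamer. The exact nonamer was found at IGKV16-104 and IGKV2-112, 2 of the 9 genes, against 34 of the 92 functional genes (37.0%). Counted from 1 at the 5′ end of the nonamer, IGKV1-110 and IGKV1-117 carried C8T and C9A, IGKV1-99 carried C8T and C9G, IGKV14-100 and IGKV14-111 carried A4T, IGKV15-103 carried A4C and IGKV2-109 carried C9A. The nonamer ACAAAAATA of IGKV1-110 and IGKV1-117 occurred at none of the other 84 functional VK genes, and the nonamer ACATAAACC at 20 of them (23.8%). The whole 28-base RSS was identical between IGKV1-110 and IGKV1-117 and was shared with no other of the 162 VK genes with coordinates. The RSS of IGKV2-109 was shared with the pseudogene IGKV2-116, a gene named after the comparison was made. These matches are descriptions of the sequence and were set against no measure of RAG binding.

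The genes lie within 421 kb of chromosome 6, all in forward orientation (that of the JK elements), and each is annotated in GENCODE vM1 as an immunoglobulin V gene of 2 exons, a leader exon and a V exon. IGKV1-99, the gene nearest to the JK elements, spans chr6:68491652-68492416, and its V exon starts at 68492107. IGKV1-110 spans chr6:68220521-68221261 and IGKV1-117, the farthest, chr6:68071085-68071821. Of the 9 genes, 8 are classed as functional and IGKV15-103 as an open reading frame (V ORF). The stretch holds 12 more listed VK genes, 11 pseudogenes and 1 of unknown class, of which 9 were listed at 0 in all 20 libraries. In the list of peaks of H3K27ac, a mark of active regulatory elements, in Rag1 Cre/Cre pro-B cells, 0 of the 956 peaks on the chromosome fell between IGKV1-117 and IGKV1-99, and the nearest peaks lay 850.7 kb beyond IGKV1-117 and 1498 kb from IGKV1-99 toward the JK elements.

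The 9 genes come from 5 families, the first number of each name. V exons of IGKV1-110 and IGKV1-117 were the most alike, with 96.8% identity and 10 mismatches over 313 aligned bases. IGKV14-100 and IGKV14-111 shared 82.5%. The nearest relative of IGKV2-109 was the pseudogene IGKV2-116 with 95.2% identity. How the authors assigned reads that fit several genes is not given in the sources used here.

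The deposited values are percentages per VK gene of a total that is not stated. Summed over all listed VK genes they came to between 0.0740% and 0.377% in pro-B libraries and between 4.87% and 6.77% in pre-B libraries. All values below were divided by this sum, so that they are percentages of the VK-JK joints of a library and describe the make-up of the joints, not how many were formed. Within a library every value was a whole multiple of 1/6 of a unit (to within 0.01 of that step). The units, which may not be single sequences, summed to between 1191 and 2514 in 5 of the Wapl +/+ pro-B libraries, to between 2016 and 6892 in pro-B libraries of Wapl ∆P1,2/∆P1,2 and to between 27178 and 56642 in pre-B libraries. The remaining Wapl +/+ pro-B library, replicate 2, stood apart with 164 units. It had 102 VK genes at 0, 4 of them among the 9 genes, and its smallest value above 0 was 0.610%, which is above the share that 3 of these genes (IGKV1-99, IGKV14-100 and IGKV2-112) averaged in any group.

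IGKV1-110, IGKV14-111 and IGKV1-117 were the most used genes of the stretch in pro-B cells. In Wapl +/+ pro-B cells the order of the mean shares was IGKV1-110 at 3.15% ± 0.963 (SD, n = 6), IGKV1-117 at 3.03% ± 0.609, IGKV14-111 at 2.55% ± 0.895, IGKV16-104 at 1.73% ± 0.513, IGKV2-109 at 1.51% ± 0.773, IGKV15-103 at 1.23% ± 0.334, IGKV2-112 at 0.321% ± 0.312, IGKV14-100 at 0.200% ± 0.133 and IGKV1-99 at 0.0806% ± 0.0884. The libraries of neighbours in this order overlapped except between IGKV15-103 and IGKV2-112. In Wapl +/+ pre-B cells IGKV1-117 led with 2.09% ± 0.0977 (SD, n = 4), followed by IGKV16-104 with 1.83% ± 0.114 and IGKV1-110 with 1.79% ± 0.0845. IGKV16-104 and IGKV1-110 changed places between those libraries, and IGKV1-117 and IGKV16-104 overlapped, whereas the other 6 pairs of neighbours stood apart. The genes thus ranged over a wide span within each cell type, with IGKV1-99 the least used of the 9 by its mean in all 4 groups.

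**Figure D1:**
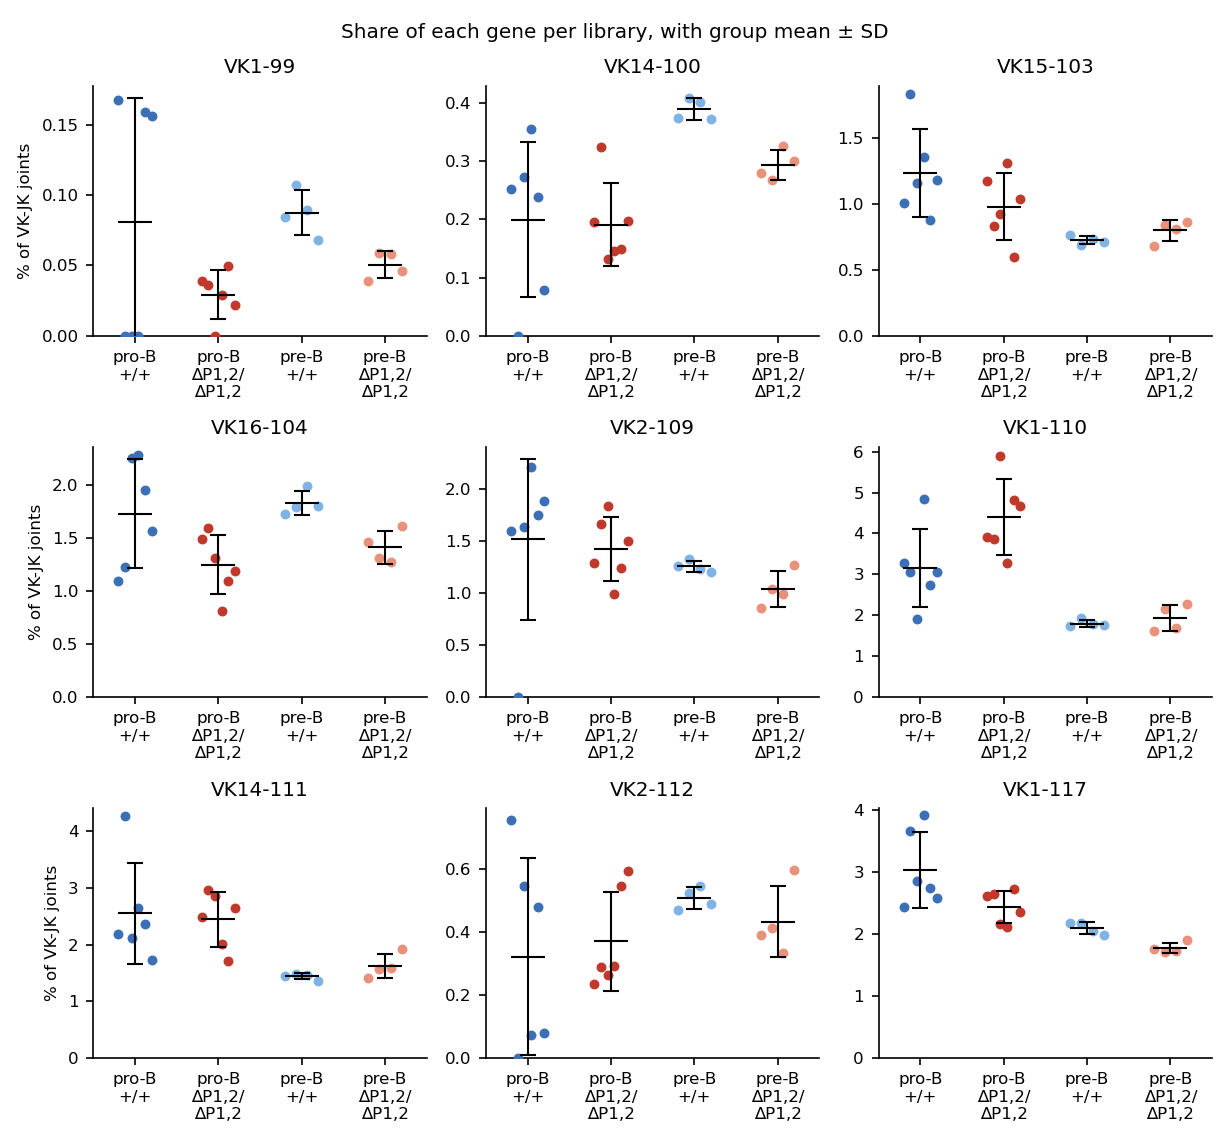
Share of VK-JK joints (%, linear axis from 0, own scale per panel) of each of the 9 genes, with 1 point per library and the mean ± SD in black for 6 libraries per pro-B group and 4 per pre-B group. The pre-B libraries lie close together, as for IGKV14-111 in Wapl +/+ (1.36% to 1.49%), whereas the pro-B libraries scatter more widely, with the points at 0 for IGKV14-100, IGKV2-109 and IGKV2-112 all from Wapl +/+ replicate 2.

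Together the 9 genes took up a larger share of the joints in pro-B than in pre-B cells of both genotypes. In Wapl +/+ pro-B libraries their sum ranged from 12.3% to 17.7% with a median of 13.0%, and in pro-B libraries of Wapl ∆P1,2/∆P1,2 from 10.97% to 15.4% with a median of 13.8%. The Wapl +/+ pre-B libraries had 10.03%, 10.4%, 10.3% and 9.73%, and the pre-B libraries of Wapl ∆P1,2/∆P1,2 8.48%, 9.33%, 8.76% and 10.8%. All pro-B libraries lay above all pre-B libraries of their genotype. The mean differed by 3.70 percentage points in Wapl +/+ (0.45 on the log2 scale) and by 4.18 points in Wapl ∆P1,2/∆P1,2 (0.53). These sums carry no test, and on the scale of the deposited percentages both differences turned negative, to -5.03 and -4.00 (log2). Between the genotypes the sums overlapped in both cell types. In pro-B cells the mean of Wapl ∆P1,2/∆P1,2 was 1.16 points above that of Wapl +/+ in the pro-B series of experiment numbers and below it (-1.74 points) in the shared series. These series are told apart by the leading digits of the experiment numbers. One was shared by both cell types, and each cell type had a series of its own, the pro-B and the pre-B series. They may be batches, although no label says so.

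**Figure D2:**
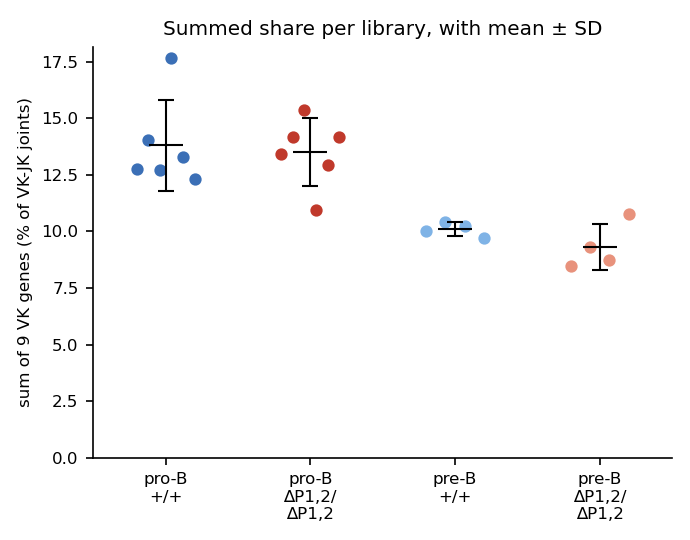
Sum of the shares of the 9 genes in each library (% of VK-JK joints, linear axis from 0), with mean ± SD in black. The 6 pro-B libraries of each genotype, from 10.97% to 17.7%, lie above the 4 pre-B libraries of that genotype, from 8.48% to 10.8%, as shares of the joints; on the scale of the deposited percentages pro-B cells had less.

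The larger sum lay mainly in 3 genes. Among Wapl +/+ cells the summed share of IGKV1-110, IGKV14-111 and IGKV1-117 was 8.73% ± 1.95 (SD, n = 6) in pro-B cells and 5.32% ± 0.203 (SD, n = 4) in pre-B cells, and it was 9.28% ± 1.14 and 5.32% ± 0.581 in the same cells of Wapl ∆P1,2/∆P1,2. Among Wapl +/+ cells the 3 genes made up between 54.0% and 78.3% of the sum in pro-B and between 51.3% and 53.5% in pre-B libraries. Among those of Wapl ∆P1,2/∆P1,2 they made up between 66.7% and 71.6% in pro-B and between 56.3% and 58.1% in pre-B libraries. The 78.3% was that of Wapl +/+ pro-B replicate 2, which held 23 units of the 9 genes and had 4 of them at 0. The other 6 genes together took 5.07% ± 1.13 in Wapl +/+ pro-B (3.05% in replicate 2, the lowest) and 4.79% ± 0.162 in Wapl +/+ pre-B cells. In Wapl ∆P1,2/∆P1,2 they took 4.23% ± 0.485 and 4.02% ± 0.447. The grouping into 3 and 6 genes was made after the values were seen and carries no test.

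The first comparison asked how the use of the 9 genes differed between both cell types of Wapl +/+ mice. By limma on log2(percent + 0.05), with Benjamini-Hochberg adjustment over the 105 genes with a mean of at least 0.05%, 4 of the 9 genes passed at 0.05, all with a higher share in pro-B cells. Among all genes tested 19.0% were called, 10.5% higher and 8.57% lower. IGKV1-110 rose from 1.74%, 1.92%, 1.77% and 1.74% in the pre-B libraries to between 1.91% and 4.85% in the pro-B libraries (median 3.05%), a log2 difference of 0.74 ± 0.20 (SE, limma adjusted p = 0.0297). Its pro-B libraries lay above all pre-B libraries in 5 of 6 cases. IGKV14-111 rose from 1.44%, 1.49%, 1.45% and 1.36% to between 1.72% and 4.27% (median 2.27%), by 0.75 ± 0.21 (SE, limma adjusted p = 0.0300). IGKV1-117 went from between 1.98% and 2.18% to between 2.43% and 3.92%, by 0.50 ± 0.15 (SE, limma adjusted p = 0.0355). The V ORF IGKV15-103 went from between 0.690% and 0.762% to between 0.875% and 1.83%, by 0.70 ± 0.22 (SE, limma adjusted p = 0.0403). The 6 pro-B libraries lay above all 4 pre-B libraries for IGKV14-111, IGKV1-117 and IGKV15-103.

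The groups also stood apart at IGKV14-100, the other way: its pre-B libraries had 0.374%, 0.409%, 0.402% and 0.372% and its pro-B libraries between 0 and 0.357% (log2 difference -1.10 ± 0.59 (SE), limma adjusted p = 0.193). With IGKV14-100, 4 of the 9 genes did not overlap between the cell types, against 35.2% of all genes tested. Its pro-B values rest on 0 to 6 units per library, the 0 being that of the library with 164 units. With array weights IGKV14-100 passed as lower (-0.67, limma adjusted p = 0.0329). The difference between IGKV14-100 and IGKV14-111, which share a nonamer, was not tested. IGKV16-104 (1.09% to 2.28% in pro-B, 1.72% to 1.99% in pre-B) and IGKV1-99 (3 of 6 pro-B libraries at 0) did not pass the test, nor did IGKV2-112, with 0 to 0.756% in pro-B and 0.470% to 0.547% in pre-B cells. IGKV2-109 had a fitted difference of -0.36 ± 0.90 (SE, limma adjusted p = 0.760) and was at 0 in pro-B replicate 2. The other 5 pro-B libraries, from 1.60% to 2.21%, lay above all pre-B libraries (1.20% to 1.32%), and the difference was 0.51 without replicate 2 (limma adjusted p = 0.0166) and 0.40 with array weights (limma adjusted p = 0.0367).

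The calls were lost when single libraries were left out, although the differences stayed close to those above. No gene of the 9 passed when any 1 of the 4 pre-B libraries was left out (adjusted p between 0.0806 and 0.114 for the 4 genes), with log2 differences from 0.73 to 0.78 for IGKV1-110, from 0.72 to 0.76 for IGKV14-111, from 0.48 to 0.52 for IGKV1-117 and from 0.67 to 0.72 for IGKV15-103. Over all genes tested the 20 calls fell to 6, 4, 3 and 3 without pre-B replicates 1 to 4. Of the 9 genes 1 passed without pro-B replicate 4, and of all 105 genes tested 12 did. IGKV15-103 also lost its call without pro-B replicate 3 (adjusted p = 0.0562) and replicate 6 (adjusted p = 0.0623), so that leaving out any of 7 of the 10 libraries ended it. None of the 9 genes passed with the series of experiment numbers as a covariate, and of all 105 genes tested 3 did. Within the series shared by both cell types the log2 differences were 0.95 for IGKV1-110, 0.63 for IGKV14-111, 0.58 for IGKV1-117 and 0.60 for IGKV15-103. The median log2 difference of the 9 genes was -0.13, beside -0.65 over all 105 genes tested, 0.43 over 16 tested central genes (the next numbers on the JK side) and -0.65 over 13 tested distal genes (the next numbers beyond IGKV1-117). Centring each library on its median gene moved the differences upward by a median of 0.35 and turned that of IGKV16-104 positive (0.22).

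The same question in Wapl ∆P1,2/∆P1,2 cells gave 4 of 8 tested genes with a higher share in pro-B cells, and 0 with a lower one. Of the 100 genes tested 54.0% were called, 12.0% higher and 42.0% lower. IGKV1-110 had the largest difference of the 8, from 1.62%, 2.15%, 1.68% and 2.27% in pre-B libraries to between 3.28% and 5.90% (median 4.28%) in pro-B libraries, a log2 difference of 1.16 ± 0.16 (SE, limma adjusted p = 3.4e-05). Its 6 pro-B libraries all lay above the 4 pre-B libraries. It held with every library left out in turn and with the series as a covariate, where it was the only one of these genes called. Of all 100 genes tested 19 were called with that covariate. Within the shared series the difference of IGKV1-110 was 1.08. IGKV1-117 rose from between 1.71% and 1.90% to between 2.12% and 2.73%, by 0.44 ± 0.12 (SE, limma adjusted p = 0.00584), again without overlap. With the series as a covariate, and so within the shared series, its difference was 0.39 (adjusted p = 0.152). IGKV14-111 rose from between 1.41% and 1.92% to between 1.71% and 2.96%, by 0.56 ± 0.16 (SE, limma adjusted p = 0.00711), with 5 of 6 pro-B libraries above all pre-B libraries. Within the shared series the difference was 0.25 (adjusted p = 0.388 with the covariate). IGKV2-109, the gene with the altered heptamer, passed narrowly at 0.42 ± 0.17 (SE, limma adjusted p = 0.0462), with between 0.987% and 1.84% in pro-B and between 0.852% and 1.26% in pre-B libraries. Leaving out 1 library ended its call in 6 of 10 cases (adjusted p from 0.0103 to 0.165), and it was also lost with a pseudocount of 0.01 (adjusted p = 0.0545), with no filter (0.0564), with functional genes alone (0.0648) and with the series as a covariate (0.728), where the difference was 0.12.

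The other genes did not pass. IGKV15-103 had 0.976% ± 0.253 (SD, n = 6) in pro-B and 0.796% ± 0.0806 (SD, n = 4) in pre-B cells (log2 difference 0.24, limma adjusted p = 0.306), IGKV16-104 had 1.25% ± 0.281 and 1.41% ± 0.155, and IGKV2-112 had 0.369% ± 0.157 and 0.432% ± 0.113. IGKV14-100 had 0.191% ± 0.0715 in pro-B and 0.294% ± 0.0255 in pre-B cells, a difference of -0.56 ± 0.27 (SE, limma adjusted p = 0.0907), and 5 of 6 pro-B libraries lay below all pre-B libraries. Without pro-B replicate 2, its highest library, IGKV14-100 passed as lower (-0.69, limma adjusted p = 0.0204), as it did with array weights (-0.53, adjusted p = 0.0288) and without a logarithm (-0.103 percentage points, adjusted p = 0.0385). IGKV1-99 was under the filter and was not tested, at 0 to 0.0496% in pro-B and 0.0391% to 0.0589% in pre-B libraries. In all, 2 of the 8 tested genes (IGKV1-110 and IGKV1-117) did not overlap, against 41.0% of all genes tested. Centring on the median gene, which moved the differences by a median of 0.61, turned the signs of IGKV14-100 (0.05), IGKV16-104 (0.41) and IGKV2-112 (0.35) and made IGKV15-103 pass (0.85, limma adjusted p = 0.00502). The median over the 8 genes was 0.33, beside -0.51 over all genes tested. Here the pro-B libraries had between 55 and 65 VK genes at 0 and the pre-B libraries between 47 and 48. On the scale of the deposited percentages all members tested were lower in pro-B cells in both genotypes. There limma called 105 of 105 genes tested in Wapl +/+ and 100 of 100 in Wapl ∆P1,2/∆P1,2.

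**Figure D3:**
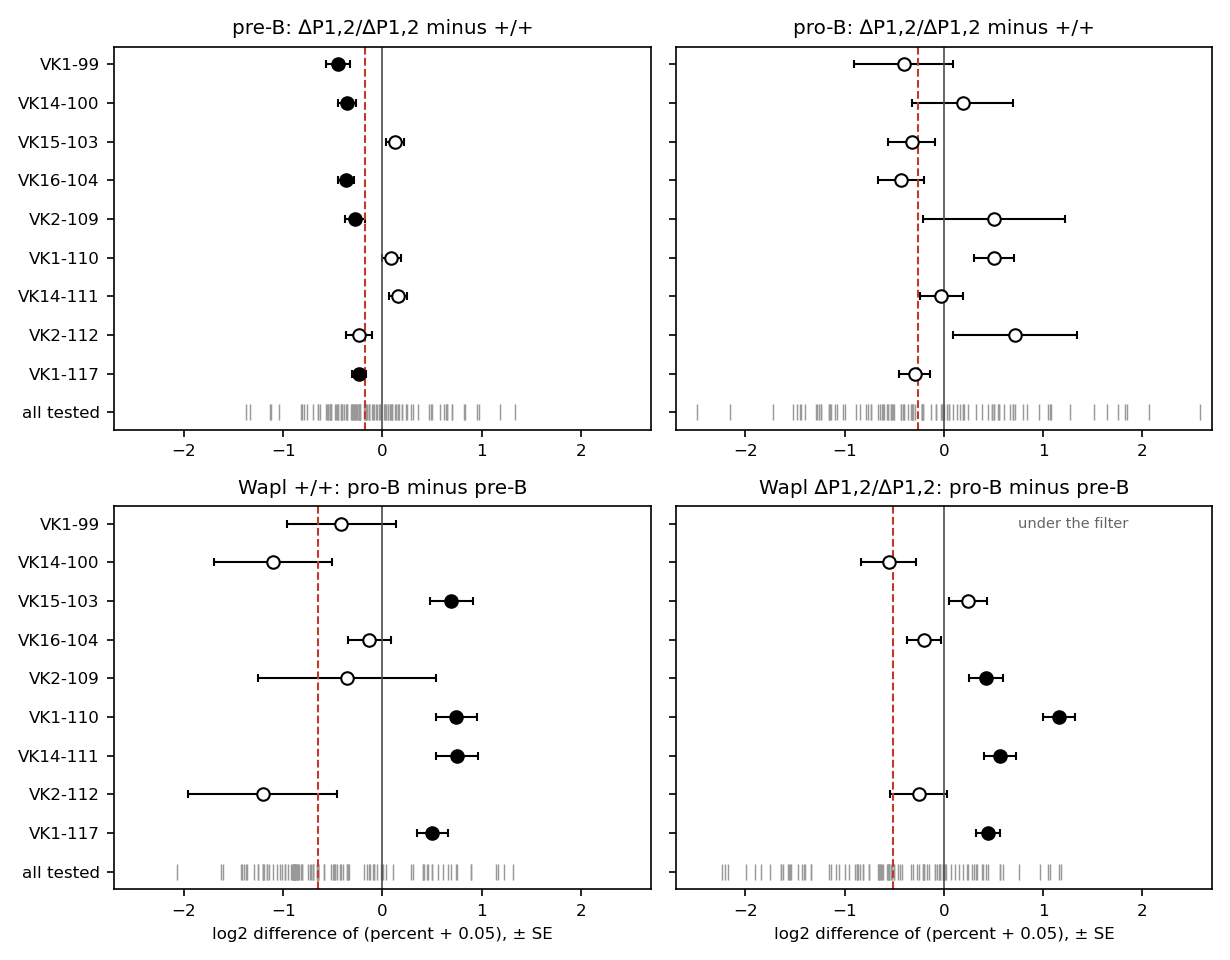
Difference of log2(percent + 0.05) between groups (x axis, ± SE from limma) for the 9 genes in 4 comparisons, with filled circles for an adjusted p below 0.05. Grey ticks mark all genes tested and the dashed red line their median, at -0.18 and -0.26 in the comparisons of genotypes and at -0.65 and -0.51 in those of cell types; the filled circles are 5 in pre-B cells (all negative), 0 in pro-B cells and 4 in each comparison of cell types (all positive, but negative on the scale of the deposited percentages).

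The next comparison asked whether higher Wapl expression goes with another use of the genes in pre-B cells. In pre-B cells of Wapl ∆P1,2/∆P1,2 5 of the 9 genes had a lower share and 0 a higher one by limma over 107 genes. Of all genes tested 67.3% were called, 21.5% higher and 45.8% lower. IGKV1-99 fell from 0.0847%, 0.107%, 0.0899% and 0.0682% in Wapl +/+ to 0.0391%, 0.0589%, 0.0580% and 0.0462%, a log2 difference of -0.45 ± 0.12 (SE, limma adjusted p = 0.00341). IGKV16-104 fell from 1.72%, 1.79%, 1.99% and 1.803% to 1.46%, 1.31%, 1.27% and 1.61%, by -0.37 ± 0.08 (SE, limma adjusted p = 0.00118). IGKV14-100 fell from between 0.372% and 0.409% to between 0.269% and 0.326%, by -0.36 ± 0.09 (SE, limma adjusted p = 0.00313). In these 3 genes and in IGKV1-117, which fell from 2.18%, 2.17%, 2.04% and 1.98% to 1.76%, 1.71%, 1.72% and 1.90%, by -0.23 ± 0.07 (SE, limma adjusted p = 0.00744), the genotypes did not overlap. Such separation was seen in 58.9% of all genes tested.

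IGKV2-109 fell from between 1.20% and 1.32% to 0.852%, 1.03%, 0.990% and 1.26%, by -0.28 ± 0.10 (SE, limma adjusted p = 0.0206), and its highest Wapl ∆P1,2/∆P1,2 library lay within the Wapl +/+ range. Its call was lost without Wapl +/+ replicate 2 (adjusted p = 0.0656), without Wapl ∆P1,2/∆P1,2 replicate 1 (adjusted p = 0.0542) and with centred libraries (adjusted p = 0.0778). The 4 genes that did not pass were IGKV2-112 (0.507% ± 0.0343 against 0.432% ± 0.113 (SD, n = 4 each)), IGKV15-103 (0.723% ± 0.0309 against 0.796% ± 0.0806), IGKV14-111 (1.44% ± 0.0528 against 1.62% ± 0.216) and IGKV1-110 (1.79% ± 0.0845 against 1.93% ± 0.327). For IGKV1-110 the log2 difference was 0.09 ± 0.10 (SE, limma adjusted p = 0.413). Without Wapl ∆P1,2/∆P1,2 replicate 1, IGKV14-111 (0.22, adjusted p = 0.0243) and IGKV15-103 (0.20, adjusted p = 0.0318) passed as higher, and without replicate 4 of that group IGKV2-112 passed as lower (-0.38, adjusted p = 0.000726), as it did with array weights (-0.32, adjusted p = 0.00666). The 5 called genes were lower within both series, with log2 differences of -0.44 in the pre-B series and -0.12 in the shared series for IGKV2-109 and of -0.32 and -0.15 for IGKV1-117. With the deposited percentages IGKV1-99 was the only one of the 9 called, beside 48 of all 107 genes tested.

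Between the members and their surroundings the pre-B difference varied along the locus. The median log2 difference was -0.23 over the 9 genes, 0.50 over 16 tested central genes (14 higher, 0 lower) and -0.81 over 13 tested distal genes (1 higher, 11 lower), beside -0.18 over all genes tested. The flanking functional genes were both lower: IGKV12-98, on the JK side, had 0.532% ± 0.0419 in Wapl +/+ and 0.439% ± 0.0501 in Wapl ∆P1,2/∆P1,2 (-0.25 ± 0.10 (SE), limma adjusted p = 0.0303), and IGKV9-120, on the other side, 2.02% ± 0.0983 and 1.35% ± 0.0524 (-0.56 ± 0.07 (SE), limma adjusted p = 3.6e-06). IGKV20-101-2, a gene of unknown class between IGKV14-100 and IGKV15-103 that was named after its values were seen, had 0.450% ± 0.0313 and 0.268% ± 0.0103 (-0.65 ± 0.09 (SE), limma adjusted p = 1.1e-05). Of the other genes of families 1, 2 and 14, 8 were tested, of which 5 were lower and 1 higher. The differences between these lists were not tested.

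In pro-B cells the genotypes were compared with 6 libraries each, and limma called 0 of the 9 genes over 104 genes tested, of which 26.0% were called. At an unadjusted p below 0.05 there were 40 of all 104 genes tested and 1 of the 9, IGKV1-110. It had between 1.91% and 4.85% (median 3.05%) in Wapl +/+ and between 3.28% and 5.90% (median 4.28%) in Wapl ∆P1,2/∆P1,2 libraries, a log2 difference of 0.51 ± 0.20 (SE, limma adjusted p = 0.0745). Of the 6 Wapl ∆P1,2/∆P1,2 libraries, 1 lay above all Wapl +/+ libraries. The difference was 0.73 in the pro-B series and 0.28 in the shared series. IGKV1-110 passed without the Wapl +/+ replicate 2 (0.51, adjusted p = 0.0369), without Wapl +/+ replicate 4 (0.64, adjusted p = 0.0270), with array weights (0.55, adjusted p = 0.00540), with centred libraries (0.84, adjusted p = 0.0449) and with the deposited percentages (1.46, adjusted p = 0.000218), and over all single libraries left out its adjusted p ran from 0.0270 to 0.174.

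IGKV1-117 had between 2.43% and 3.92% (median 2.80%) in Wapl +/+ and between 2.12% and 2.73% (median 2.48%) in pro-B cells of Wapl ∆P1,2/∆P1,2, with a log2 difference of -0.30 ± 0.16 (SE, limma adjusted p = 0.191) that turned to 0.04 with centred libraries and to 0.66 with the deposited percentages. IGKV16-104 had 1.73% ± 0.513 and 1.25% ± 0.281 (SD, n = 6 each), with a difference of -0.43 ± 0.24 (SE, limma adjusted p = 0.191) that passed without replicate 2 of Wapl +/+ (-0.52, adjusted p = 0.0451) and with array weights (-0.54, adjusted p = 0.0222) and turned positive with the deposited percentages (0.50). Its log2 difference was 0.0132 in the pro-B series and -0.88 in the shared series. IGKV14-111 was at 2.55% ± 0.895 and 2.44% ± 0.491, with a difference of -0.03 that was 0.31 with centred libraries and 0.93 with the deposited percentages. IGKV2-112 had 0 to 0.756% in Wapl +/+ and 0.234% to 0.594% in Wapl ∆P1,2/∆P1,2, and 3 Wapl +/+ libraries held at most 0.0784%. IGKV2-109 and IGKV14-100 had positive fitted differences (0.51 and 0.19), which turned negative without Wapl +/+ replicate 2 (-0.36 and -0.22). Within series, the difference of IGKV2-109 was 1.65 in the pro-B series and -0.64 in the shared series. IGKV15-103 stood at 1.23% ± 0.334 and 0.976% ± 0.253, and IGKV1-99 at 0 to 0.168% and 0 to 0.0496%. No member separated the genotypes fully, against 15.4% of all genes tested. The median over the 9 genes was -0.03, beside -0.26 over all genes tested, which centring moved upward by a median of 0.33. Of the other genes of families 1, 2 and 14, 6 of 8 tested were called, 5 lower and 1 higher.

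An interaction term fitted over all 20 libraries asked whether the genotypes differed by another amount in pro-B than in pre-B cells. Limma called 0 of the 9 genes, against 1.89% of the 106 genes tested. At an unadjusted p below 0.05 there were 0 of the 9 genes and 9 of the 106. The term was 0.42 ± 0.27 (SE, limma adjusted p = 0.653) for IGKV1-110 and -0.45 ± 0.31 (SE, limma adjusted p = 0.653) for IGKV15-103. The SE was widest for IGKV2-109 (0.78 ± 0.97) and IGKV2-112 (0.95 ± 0.81), which were at 0 in Wapl +/+ pro-B replicate 2.

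IGKV1-110 and IGKV1-117 have the same RSS and V exons of 96.8% identity, and their ratio within a library does not depend on the total. The ratio of IGKV1-110 to IGKV1-117 was 1.34, 0.833, 0.667, 1.24, 1.00 and 1.18 in the Wapl +/+ pro-B libraries, with a mean of 1.04 ± 0.259 (SD, n = 6). In the pro-B libraries of Wapl ∆P1,2/∆P1,2 it was 1.49, 1.47, 2.73, 1.55, 1.76 and 1.98, with a mean of 1.83 ± 0.481. All 6 of these lay above every library of the other groups. In pre-B cells it was 0.797, 0.882, 0.866 and 0.880 in Wapl +/+ (0.856 ± 0.0399 (SD, n = 4)) and 0.921, 1.25, 0.981 and 1.19 in Wapl ∆P1,2/∆P1,2 (1.09 ± 0.160), and the genotypes again did not overlap. The pro-B means were 0.948 in Wapl +/+ and 1.90 in Wapl ∆P1,2/∆P1,2 libraries of the pro-B series, and 1.14 and 1.76 in the shared series. In pre-B cells they were 0.840 and 1.09 in the pre-B series, and 0.873 and 1.09 in the shared series. The ratio of these genes with 1 RSS thus varied from 0.667 to 2.73 over the 20 libraries. The 0.833 was that of Wapl +/+ pro-B replicate 2, the library with 164 units, and rests on 5 units of IGKV1-110 and 6 of IGKV1-117. The pair was picked after its values were seen, and the ratio is given without a test.

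**Figure D4:**
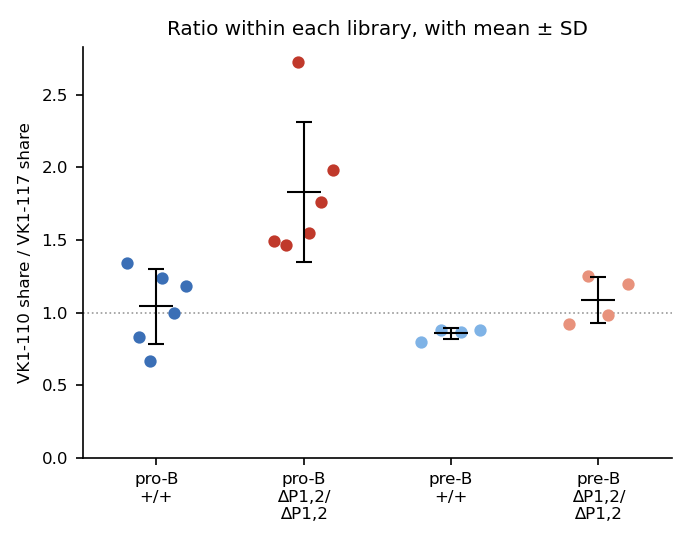
Ratio of the share of IGKV1-110 to that of IGKV1-117 in each library (linear axis from 0, dotted line at 1), with mean ± SD in black. The 6 pro-B libraries of Wapl ∆P1,2/∆P1,2 lie between 1.47 and 2.73, above all other libraries, and the Wapl +/+ pre-B libraries lie between 0.797 and 0.882.

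Across the 20 libraries each gene was set beside the 97 other VK genes with a mean of at least 0.05% by Pearson's r of log2(percent + 0.05). The points share the group differences, the depth and the common total, so r is a description only. IGKV1-110 was most like IGKV19-93 (r = 0.914), IGKV14-111 most like IGKV10-94 (r = 0.846), and IGKV15-103 and IGKV1-117 most like IGKV1-135 (r = 0.848 and 0.766). Only genes other than the 9 were searched for these. IGKV2-109 was most like IGKV4-59 (r = 0.917), IGKV14-100 like IGKV8-30 (r = 0.848), IGKV2-112 like IGKV4-70 (r = 0.820), IGKV16-104 like IGKV1-132 (r = 0.770) and IGKV1-99 like IGKV7-33 (r = 0.748). Among the 9 genes themselves r ran from 0.725 between IGKV15-103 and IGKV14-111 down to -0.722 between IGKV15-103 and IGKV2-112.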

How the data were processed

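The authors deposited, for each *Igk* VDJ-seq library, 1 score per VK gene, a percent of a total that is not given in the sources used here. They were made from paired-end MiSeq reads with UMIs by the VDJ-seq procedure the authors published, and R is named for the display of the results. For H3K27ac the authors deposited a peak list on mm9 whose score column holds 0 for every peak, so only positions were used. The VH-DJH libraries of the series were not analysed here. Columns of samples outside the series numbered 0.

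Here the values of a library were divided by their sum over all listed VK genes. Values were transformed to log2(percent + 0.05) and limma 3.58.1 (R 4.3.3, moderated variances with trend) was fitted to the libraries of the groups compared, without covariates, for genes averaging 0.05% or more in them, and with Benjamini-Hochberg adjustment over all genes tested, two-sided. The script was tested on simulated data. Members, lists and the rule for named genes were chosen with earlier results of these data known. By that rule the text names the 9 genes, the functional flanks IGKV12-98 and IGKV9-120, and for each member the VK gene most like it. Tables were handled in Python 3.11.15, sequences were read from NCBIM37 with GENCODE vM1, and V exons were compared with blastn 2.17.0+. The VK gene names, classes and coordinates are those of the gene list of the study. Alternatives were the pseudocount (0.01), the filter, no logarithm, array weights, the series of experiment numbers as a covariate, the deposited values, a total over functional genes alone, centred libraries, group medians for the sums and leaving out libraries singly. The depth in reads is unknown. The units named in the report are steps between values, and no counting interval was derived from them.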

Additional observations from a re-analysis of the deposited data

Results flagged for a closer look

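In 36 groups of values (9 genes in 4 groups of libraries) 3 had a highest or lowest library far from the others by Dixon's test, where chance flags about 1 in 20 groups. IGKV14-100 had 0.325% in its highest pro-B library of Wapl ∆P1,2/∆P1,2 and at most 0.198% in the other 5. IGKV2-109 was at 0 in its lowest Wapl +/+ pro-B library and between 1.60% and 2.21% in the others. IGKV14-111 had 4.27% in its highest Wapl +/+ pro-B library and at most 2.64% in the others. The last 2 values come from the library with 164 units, of which IGKV2-109 had 0 and IGKV14-111 had 7. For none of the 9 genes did the interaction of genotype and cell type pass limma's test, with standard errors of up to 0.97.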

How the results depend on the processing

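Of 347 alternative values for single genes other than those from leaving out a library, 274 kept their direction and side of the threshold, 15 lost and 17 gained a call, and 41 changed sign. Of 527 values with 1 library left out the numbers were 474, 29, 7 and 17. The cause of these changes was not tested. No paired analysis was possible because the labels of the VK-JK libraries hold no replicate numbers, and those used here follow the order of the samples.

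With the deposited percentages every gene tested of the 9 was called lower in pro-B cells, 9 in Wapl +/+ and 8 in Wapl ∆P1,2/∆P1,2. Of all genes tested 105 of 105 and 100 of 100 were called on this scale. The log2 differences that turned were in Wapl +/+ -4.72 for IGKV1-110, -4.97 for IGKV1-117, -4.71 for IGKV14-111 and -4.70 for IGKV15-103, and in Wapl ∆P1,2/∆P1,2 -3.37 for IGKV1-110, -4.08 for IGKV1-117, -3.95 for IGKV14-111, -4.21 for IGKV15-103 and -4.06 for IGKV2-109. The sums turned to -5.03 and -4.00. On the same scale 1 of the 9 genes was called between the genotypes in pre-B cells (48 of all 107 genes tested) and 1 in pro-B cells (25 of all 104). The sum in pro-B cells turned to 0.95, and the genotype differences in pro-B cells turned to 0.66 for IGKV1-117, 0.93 for IGKV14-111, 0.61 for IGKV15-103 and 0.50 for IGKV16-104. The interaction terms turned to 0.86 for IGKV1-117, 0.72 for IGKV14-111, 0.43 for IGKV15-103 and 0.84 for IGKV16-104.

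With libraries centred on their median gene 1 member was called between the genotypes in pro-B cells, beside 22 of all 104 genes tested. In that comparison IGKV1-117 turned to 0.0383, IGKV14-111 to 0.31 and IGKV15-103 to 0.0083. Between the cell types IGKV16-104 turned to 0.22 in Wapl +/+, and in Wapl ∆P1,2/∆P1,2 IGKV14-100 turned to 0.0505, IGKV16-104 to 0.41 and IGKV2-112 to 0.35. The interaction terms turned to 0.34 for IGKV1-117, 0.22 for IGKV14-111 and 0.33 for IGKV16-104. With array weights 2 genes were called in pro-B cells, IGKV1-110 higher and IGKV16-104 lower, and signs turned for IGKV14-100 (-0.21), IGKV14-111 (0.12) and IGKV2-109 (-0.29). IGKV2-109 turned to 0.40 between the Wapl +/+ cell types, and the interaction terms of IGKV1-117 and IGKV1-99 turned to 0.0228 and -0.30. With the series as a covariate 0 genes were called between the cell types in Wapl +/+ and 1 in Wapl ∆P1,2/∆P1,2. IGKV1-99 (0.0083), IGKV16-104 (0.0126) and IGKV2-109 (0.65) turned in Wapl +/+ and IGKV2-112 (0.0292) in Wapl ∆P1,2/∆P1,2. Without a logarithm, in percentage points, IGKV14-100 (-0.0091) and IGKV2-109 (-0.0941) turned in pro-B cells, IGKV2-109 (0.26) between the Wapl +/+ cell types and the interaction term of IGKV1-99 (-0.0144). With group medians the genotype difference of the sum in pro-B cells was 0.0824 (log2).

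With 1 library left out the number of the 9 genes called ran from 0 to 5 between the Wapl +/+ cell types, from 3 to 4 in Wapl ∆P1,2/∆P1,2, from 4 to 6 in pre-B cells and from 0 to 2 in pro-B cells, and was 0 for each interaction fit. The log2 difference of the sum ran from 0.37 to 0.48 between the Wapl +/+ cell types, from 0.49 to 0.61 in Wapl ∆P1,2/∆P1,2, from -0.19 to -0.0712 in pre-B cells and from -0.0714 to 0.0526 in pro-B cells. Single genes whose sign turned ran between -0.59 and 0.51 (IGKV2-109) in Wapl +/+ cell types, and in pro-B cells between -0.22 and 0.39 (IGKV14-100), -0.12 and 0.13 (IGKV14-111) and -0.36 and 0.74 (IGKV2-109). Interaction terms ran between -0.12 and 0.0163 (IGKV1-117), -0.16 and 0.26 (IGKV1-99), -0.18 and 0.0449 (IGKV16-104) and -0.0852 and 1.01 (IGKV2-109).

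Over all genes, the 20 called between the Wapl +/+ cell types became 63 with array weights, 39 without a logarithm, 3 with the series and 105 with the deposited percentages. They became 6, 4, 3 and 3 without pre-B replicates 1 to 4, 44 without pro-B replicate 2 and 12 without pro-B replicate 4. The 54 in Wapl ∆P1,2/∆P1,2 became 19 with the series and 100 with the deposited percentages. The 27 in pro-B cells became 49 with array weights, 49 without Wapl +/+ replicate 2 and 16 without Wapl ∆P1,2/∆P1,2 replicate 2. The 2 interaction terms became 19 with array weights, 1 with centring, 6 without a logarithm, 0 with the deposited percentages and 10 without Wapl +/+ pro-B replicate 2. Shares below about 0.08% lie near the smallest value above 0 of several pro-B libraries, which limits IGKV1-99, IGKV14-100 and IGKV2-112 there.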
